A study of Rattus norvegicus with 35 samples.

Results

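The potassium channel genes of the rat hippocampus were taken as every gene of the deposited count table whose name starts with Kcn, with the exception of Kcnj13. There were 75 such genes among the 15059 of the table, and 73 of them passed the filter on low counts and were tested, while Kcne5 and Kcnk5 did not. By role, 13 encoded voltage-gated pore subunits (Kcna to Kcnd), 9 silent modifier subunits (Kcnf, Kcng, Kcns, Kcnv), 13 KCNQ and EAG-type subunits (Kcnq, Kcnh), 9 auxiliary subunits (Kcnab, Kcne, Kcnip), 8 channels or subunits gated by calcium or sodium (Kcnma, Kcnmb, Kcnn, Kcnt), 12 inward rectifiers (Kcnj) and 10 leak channels with a pair of pore domains per subunit (Kcnk). The remaining member, Kcnrg, encodes a regulator of channel assembly known from human cells.

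The animals were female Sprague Dawley rats operated on at 6 months of age. Sham rats kept their ovaries, and the rats of the other 6 groups were all ovariectomised, so the loss of ovarian hormones is shared by vehicle and by every drug group. After a washout of 2 weeks the ovariectomised rats received daily intraperitoneal vehicle, estradiol (0.16 mg/kg), the selective estrogen receptor modulators tamoxifen (3.23 mg/kg) or raloxifene (9.68 mg/kg), or the aromatase inhibitors exemestane (0.16 mg/kg) or anastrozole (4.03 mg/kg), and tissue was collected 7 days after treatment began. The labels give exemestane the dose of estradiol, and each drug was given at 1 dose. Each of the 7 groups held 5 libraries of poly(A) RNA, 35 in all. Per the labels the rats were divided into 8 groups, and an eighth group is not analysed here. The labels do not tie the libraries to litters or cages, and whole hippocampus was sequenced, so the groups are models of short treatment soon after ovariectomy in a mixed tissue.

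Potassium channels let potassium leave the neuron. They set its resting potential, repolarise it after each spike and limit how often it fires. Pore subunits of the voltage-gated families open on depolarisation. Silent subunits form no channel alone and change the channels they join, and auxiliary subunits change gating or transport to the membrane. Inward rectifiers and leak channels hold the membrane near rest, and inward rectifiers of astrocytes also take up potassium released by active neurons. In hippocampal neurons, A-type channels of the Kcna and Kcnd families in dendrites and axons shape excitability, KCNQ subunits carry the M-current, and the sodium-activated channels Kcnt1 and Kcnt2 open when sodium enters during firing.

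Library totals ran from 5.58 M to 12.09 M counts, in units of 1000000, with a median of 8.01 M. A pair of features of the libraries bears on the values. The libraries fell into classes A (20 libraries) and B (15 libraries). The split rests on the ratio of the authors' un-normalised to normalised values over 12261 genes. Genes entered by a minimum count of 10, which channel genes such as Kcna2 and Kcnt2 meet, so class is not independent of the channels. All 5 raloxifene libraries were of class B, as were 4 of exemestane, 3 of tamoxifen, 2 of anastrozole and 1 of vehicle, while all sham and estradiol libraries were of class A. Between the classes the summed level of 4 excitatory neuron markers also moved, with a median of 2870 CPM (counts per 1000000 of TMM-scaled totals) in class A and 2340 CPM in class B. Other marker lists did not all move this way. Medians in class A and class B were 642 and 519 CPM for CA1 markers, and 296 and 304 CPM for dentate granule cell markers. They were 725 CPM in both for GABAergic interneuron markers, and 3310 and 3580 CPM for astrocyte markers. Sham replicate 1 stood apart: 9 thalamus and habenula markers summed to 321 CPM there and to 108 to 154 CPM in the other 34 libraries, and 3 CA1 markers to 266 CPM against 474 to 704 CPM. The 4 excitatory neuron markers were also lowest there, at 1520 CPM against 2160 to 3080 CPM in the other 34 libraries. Values are therefore given as designed, with class in the model, and for sham without replicate 1. The part that tissue composition or class had in any difference was not tested.

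The promoters of 4 members that the results turn on are shown here for reference. Kcna3 had the smallest p between sham and vehicle without being called by edgeR, Kcna4 and Kcnt2 were called higher in both raloxifene and exemestane, and Kcnh6 had the largest fall among called members. Each line holds the 250 bases before the RefSeq gene start, 5′ to 3′ on the gene's strand, in the rat build GRCr8 that the sequence table names. Capitals mark GGGCGG, the GC box bound by Sp-family factors. The 4 windows are chr2:197320074-197320323 (Kcna3), chr3:114215086-114215335 (Kcna4), chr13:54215057-54215306 (Kcnt2) and chr10:91449401-91449650 (Kcnh6), all on the plus strand.
Kcna3: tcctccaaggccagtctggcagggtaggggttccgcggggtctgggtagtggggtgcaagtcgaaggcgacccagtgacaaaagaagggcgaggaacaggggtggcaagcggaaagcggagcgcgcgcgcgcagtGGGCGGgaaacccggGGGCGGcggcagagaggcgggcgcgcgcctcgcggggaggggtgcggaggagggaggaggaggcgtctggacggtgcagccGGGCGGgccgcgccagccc
Kcna4: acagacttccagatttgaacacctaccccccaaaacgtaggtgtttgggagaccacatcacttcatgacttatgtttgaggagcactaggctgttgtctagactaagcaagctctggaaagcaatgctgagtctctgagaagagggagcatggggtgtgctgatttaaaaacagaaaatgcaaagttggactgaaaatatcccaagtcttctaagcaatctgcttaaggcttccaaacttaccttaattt
Kcnt2: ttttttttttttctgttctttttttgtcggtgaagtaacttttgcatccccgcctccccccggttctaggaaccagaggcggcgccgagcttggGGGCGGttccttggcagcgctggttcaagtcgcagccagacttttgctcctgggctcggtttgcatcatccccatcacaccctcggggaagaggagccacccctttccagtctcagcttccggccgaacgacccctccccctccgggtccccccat
Kcnh6: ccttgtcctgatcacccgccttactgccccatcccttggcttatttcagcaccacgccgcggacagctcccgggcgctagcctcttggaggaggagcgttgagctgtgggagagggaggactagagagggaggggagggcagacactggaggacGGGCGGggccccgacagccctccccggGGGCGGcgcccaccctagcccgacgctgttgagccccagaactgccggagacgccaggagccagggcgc
The Kcna3 window held 3 GC boxes, at 115, 100 and 19 bases before the start, and 73.6% G and C. The Kcnt2 window held 1, at 156 bases before the start, and the Kcnh6 window 2. The Kcna4 window held none and had 42.8% G and C.

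RefSeq promoter entries were found for 50 of the 75 members. Searched on both strands, GGGCGG lay in 27 of these 50 windows (54.0%) and in 32.4% of all 27457 promoter windows of the table. GGTCA, the half-site of the estrogen response element, lay in 11 of 50 (22%) against 35.2% of all. The full estrogen response element palindrome, in which GGTCA is followed by 3 bases of any kind and TGACC, contains the half-site. It lay in 0 of 50 and in 0.0219% of all. None of the 4 windows above held the half-site. The window of Kcnt1, a called member not shown above, held it on the minus strand, 203 to 199 bases before the start. TGACGTCA, the cyclic AMP response element, lay in 0 of 50 against 1.7%, TATAAA in 0 of 50 against 13.1%, and CACGTG, the E-box, in 1 of 50 (Kcnh4) against 5.79%. The median content of G and C was 65.2% over the members and 52.0% over all windows. These are descriptions of letters in the windows.

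The channel genes were well measured. Tested members had mean counts from 7.03 to 3370 per library, with a median of 231, and the median coefficient of variation within a group was 15.1%. Group means of a member lay close together, with a median ratio of 1.41 between the highest and the lowest of the 7 groups, and 3 members had a ratio over 2. Of the 73 tested members, 23 had their highest mean in estradiol and 21 in sham, and 21 had their lowest in raloxifene and 18 in exemestane. All sham and estradiol libraries were of class A, while all raloxifene and 4 exemestane libraries were of class B. Group and class thus cannot be told apart in these counts, and the matching shares over all genes were not computed.

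The best-counted members of the subfamilies are given by their lowest and highest group means. Kcna2, a pore subunit of axonal channels, ran from 375 ± 35.3 CPM in vehicle to 452 ± 12.6 CPM in raloxifene (mean ± SD, n = 5 here and below). Kcnma1, the pore of the large-conductance calcium-activated channel, ran from 185 ± 28 CPM in sham to 207 ± 7.18 CPM in exemestane. None of these levels can be set against another gene's, since CPM is not scaled by length.
Others ranged more widely in part. Kcnab2, a cytoplasmic beta subunit, had its lowest mean in raloxifene (225 ± 14 CPM) and its highest in estradiol (307 ± 24.8 CPM). Kcnj6, a G-protein-gated inward rectifier, ran from 81.2 ± 11.5 CPM in sham to 95.9 ± 7.74 CPM in raloxifene. Kcnn2, a small-conductance calcium-activated channel, ran from 30.2 ± 2.57 CPM in vehicle to 33.7 ± 2.95 CPM in estradiol. Kcnh3 of the EAG family ran from 71.4 ± 7.94 CPM in raloxifene to 98.1 ± 6.11 CPM in estradiol, and Kcnk1 of the leak family from 40.1 ± 2.73 CPM in exemestane to 50.9 ± 8.63 CPM in sham. Kcnip2, a calcium-binding partner of Kcnd channels, varied widely within groups, at 65.0 ± 22.5 CPM in vehicle and 60.2 ± 22.6 CPM in raloxifene against 84.5 ± 7.88 CPM in tamoxifen. The silent subunits Kcnf1, Kcns2 and Kcnv1 never form a channel of their own. Kcnf1 ran from 33.1 ± 3.6 CPM in exemestane to 50.6 ± 3.77 CPM in estradiol, Kcns2 from 13.4 ± 2.06 to 19.5 ± 2.71 CPM in the same groups, and Kcnv1 from 26 ± 1.98 CPM in estradiol to 36.7 ± 9.83 CPM in tamoxifen. Kcnmb4, a neuronal beta subunit of the large-conductance channel, ran from 29.5 ± 1.38 CPM in exemestane to 37.0 ± 3.85 CPM in estradiol.

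The first comparison asked how channel transcripts of the intact hippocampus differ from those after ovariectomy. Kcna3, which was picked for being higher in sham, had the smallest p of the channel genes. It encodes a Shaker-type delayed rectifier found in neurons and known from T cells and microglia. Sham libraries held 38.8, 29.1, 28.9, 32 and 32.2 CPM, in order of replicate, and vehicle libraries held 25.2, 24.6, 28.4, 21.6 and 21.6 CPM. Every sham library lay above every vehicle library, with the highest vehicle value just under the lowest sham value. The group means were 32.2 ± 3.99 and 24.3 ± 2.82 CPM. The log2 fold change was 0.41 ± 0.0931 (SE). The adjusted p of edgeR's quasi-likelihood test over 14411 genes was 0.183, so Kcna3 was not called. DESeq2 gave 0.42 with an adjusted p of 0.0234 and called it.

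Kcna3 kept its direction in every fit of sham against vehicle. These fits reuse the libraries in which it was picked for being higher in sham. Neither the shared direction nor the DESeq2 call is therefore separate support. With class in the model the log2 fold change was 0.41 ± 0.0916 (edgeR, adjusted p = 0.103), and among class A libraries alone, which leave out vehicle replicate 4, it was 0.38. The highest sham value belongs to replicate 1, and without that library the log2 fold change was 0.33 ± 0.092 (edgeR, adjusted p = 0.471). Of the cells in which Kcna3 is best known, 7 microglial markers summed to 189 to 207 CPM in sham and 185 to 249 CPM in vehicle, so their ranges overlapped. The only T-cell marker of 5 in the table stood at 0.535 to 2.2 CPM in sham and 2.15 to 4.81 CPM in vehicle, lower on the whole where Kcna3 was higher. In bulk tissue, fewer cells of a type and less RNA per cell cannot be told apart.

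In the drug groups Kcna3 stood between sham and vehicle. Among the receptor modulators tamoxifen had a mean of 28.9 ± 4.54 CPM and raloxifene of 27.4 ± 1.97 CPM. Exemestane and anastrozole had 27.8 ± 1.17 and 27.8 ± 0.746 CPM, and estradiol had 28 ± 2.95 CPM. These 5 means differ by less than the spread within tamoxifen, and the vehicle mean is the lowest of the 7. The picking of Kcna3 for a higher level in sham than in vehicle favours that rank. Estradiol libraries held 31.6, 29.3, 24.6, 29.4 and 25.4 CPM and overlapped both sham and vehicle. Anastrozole libraries lay closest together, at 28.3, 28.8, 27.7, 26.9 and 27.4 CPM, and overlapped the single vehicle value of 28.4 CPM. Against vehicle the log2 fold change was 0.24 for tamoxifen and 0.18 for raloxifene, 0.19 for exemestane and 0.20 for anastrozole, and 0.21 for estradiol, each with SE 0.0936 to 0.0950, and none was called by edgeR. All 6 comparisons share the 5 vehicle libraries, so their common sign is not independent. Estradiol against sham gave -0.20 ± 0.0934, and -0.12 without sham replicate 1. The test of any difference among the 7 groups called Kcna3 (edgeR, adjusted p = 0.0319), but not with class in the model (edgeR, adjusted p = 0.233). It includes the sham and vehicle libraries in which Kcna3 was picked, so this call is no separate support either. Kcna3 hardly moved with class, whose coefficient was -0.02 ± 0.0728 on the log2 scale.

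**Figure D1:**
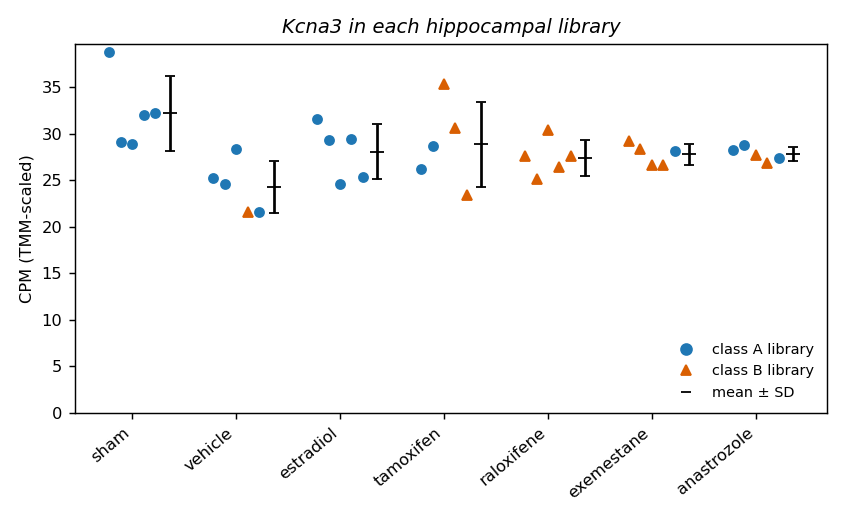
Kcna3 level in CPM (vertical axis, from 0) in each of the 35 libraries by group, with circles for class A, triangles for class B and bars for mean ± SD (n = 5). The 5 sham libraries, 28.9 to 38.8 CPM, lie above the 5 vehicle libraries, 21.6 to 28.4 CPM, and the means of the other 5 groups lie between those of sham and vehicle while their libraries overlap vehicle.

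Over all channel genes sham and vehicle differed little. No member and 0.0% of all genes were called by edgeR, and by DESeq2 Kcna3 was the 1 member among 12 genes, or 0.0797%. At an unadjusted p below 0.05 there were 7 members (9.59%) and 981 genes (6.81%), and all 7 members were higher in sham. Without sham replicate 1 there were 9 members (12.3%) against 6.09% of all genes, 8 higher and 1 lower in sham. The median log2 fold change was 0.06 over the 73 members and -0.0040 over all genes, and 8 of 9 leak channel genes had a positive value. When class was added to the model, 0 members and 0.0416% of all genes were called by edgeR.
Next to Kcna3 by p was Kcnk9, an acid-sensitive leak channel. Its sham values of 45.2, 32.5, 33.8, 32.5 and 40.3 CPM all lay above the vehicle values of 26.2, 30.0, 30.9, 21.8 and 26.3 CPM. The log2 fold change was 0.45 ± 0.123 (edgeR, adjusted p = 0.346), 0.39 with class and 0.36 without sham replicate 1. Kcnt1, the sodium-activated channel, stood at 71.9, 69.7, 63.5, 67.2 and 73.1 CPM in sham and 58.4, 59.0, 68.8, 46.2 and 53.0 CPM in vehicle, where 1 vehicle value lay within the sham range (0.28 ± 0.0975). Kcnc2, a fast delayed rectifier of interneurons, had means of 82.8 ± 6.39 and 72.4 ± 4.01 CPM (0.20 ± 0.0704), and the inward rectifier Kcnj14 had 10.7 ± 1.2 and 8.44 ± 1.37 CPM (0.35 ± 0.129). Markers of GABAergic interneurons summed to 682 to 861 CPM in sham and 628 to 713 CPM in vehicle, and their part in these values was not tested.

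A few sham means rested on replicate 1. Kcnab3, a beta subunit, stood at 32.4 CPM there and at 12.4, 13, 10 and 11.3 CPM in the other sham libraries. Vehicle libraries held 7.44, 10.5, 15.8, 11.6 and 10.4 CPM, so apart from that library the groups overlapped. Its log2 fold change of 0.51 was 0.06 without replicate 1. Kcnj16, an inward rectifier of glia and kidney, stood at 31.5 CPM there and 6.62 to 13 CPM in the others, and its 0.50 became -0.06.

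Estradiol was compared with vehicle to see what estrogen replacement did after ovariectomy. No member was called by edgeR or DESeq2. Over all genes edgeR called 1, or 0.00694%, and 0.298% with class in the model, and DESeq2 called 0.106%. As designed, at an unadjusted p below 0.05 there were 6 members (8.22%) against 9.13% of all genes. Kcng1, a silent subunit that joins other pore subunits, had the smallest p. Estradiol libraries held 74.7, 65.4, 69.1, 83.8 and 70.8 CPM and vehicle libraries 66.0, 66.1, 41.7, 43.7 and 57.1 CPM. All but 1 of the estradiol values lay above the vehicle range (0.41 ± 0.146 on the log2 scale, edgeR adjusted p = 0.386), and with class the value was 0.33.
Kcnk12, a leak channel subunit, held 18.9, 15.8, 17.2, 19 and 22.1 CPM in estradiol against 16.5, 12.7, 14.3, 10.2 and 12.8 CPM in vehicle (0.49 ± 0.212). The lowest estradiol value fell below the highest vehicle value. Kcnj2, a strong inward rectifier, had a lower mean in estradiol, 6.0 ± 0.443 against 7.83 ± 1.65 CPM (-0.38 ± 0.156). None of these passed the adjusted threshold.

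Estradiol was also set against sham, which compares replaced estrogen with intact ovaries. No member and 0.0% of all genes were called by edgeR, and DESeq2 called 0 members and 0.0133% of all genes. At an unadjusted p below 0.05 there were 14 members (19.2%) against 5.96% of all genes, 5 higher and 9 lower in estradiol. Without sham replicate 1 there were 8 members (11%) against 3.29% of all genes, 1 higher and 7 lower. Kcnt1 was among the 3 of smallest p in the full set, with estradiol at 60.6, 59.3, 47.5, 57.5 and 56.8 CPM, below all 5 sham values (-0.29 ± 0.0982, and -0.28 without sham replicate 1). Kcnk2, a mechanosensitive leak channel, stood at 16.1, 16.7, 15.6, 13.7 and 13.9 CPM in estradiol and 16, 20, 18.5, 18.5 and 23.1 CPM in sham (-0.34 ± 0.12), and overlapped only through sham replicate 1. Kcnab3 had the smallest p (-0.71 ± 0.225), and without sham replicate 1 its value was -0.26.

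Raloxifene gave the most calls against vehicle. Of the 73 members, 14 were called by edgeR (19.2%), against 24.8% of all genes, a somewhat lower share. Of the 14, 5 were higher (6.85%, against 13.4% of all genes) and 9 lower (12.3%, against 11.4%). All 5 raloxifene libraries are of class B and 4 of 5 vehicle libraries of class A, so drug and class are almost the same split here. With class in the model no member and 0.00694% of all genes were called, 4 members (5.48%) and 5.3% of all genes had an unadjusted p below 0.05, and the median size of the 14 log2 fold changes went from 0.43 to 0.11. DESeq2, without class, called 19 members (25.3%) against 26.3% of all genes. For 13 of the 14 the class coefficient was itself called, in the same direction. The matching share among all genes called in raloxifene was not computed, and 51.9% of all genes had a called class coefficient.
Set against the only class B vehicle library, which has no replicate of its own, all 14 kept their sign, with a median size of 0.26 and no call.

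The members higher in raloxifene included A-type channels and a sodium-activated channel. Kcnt2 led, with 75.1, 76.9, 79.4, 70.1 and 87.5 CPM in raloxifene and 45.4, 48.7, 46.5, 58.5 and 51.8 CPM in vehicle. The groups did not overlap, and the highest vehicle value was that of replicate 4, the class B library. The log2 fold change was 0.63 ± 0.148 (edgeR, adjusted p = 0.0113) and 0.19 ± 0.0966 with class.
Kcna4, an inactivating A-type channel of axons, held 61.3, 67.2, 67.8, 63.2 and 72.0 CPM in raloxifene and 51.4, 55.0, 44.3, 51.6 and 53.3 CPM in vehicle. The lowest raloxifene value lay above the highest vehicle value, and vehicle replicate 4 was not the highest of its group. Its log2 fold change was 0.37 ± 0.1 (edgeR, adjusted p = 0.0137) and 0.23 ± 0.107 with class.
Kcnd3, the pore of a dendritic A-type channel, stood at 123, 119, 120, 122 and 135 CPM against 117, 112, 94.5, 94.1 and 102 CPM (0.25 ± 0.0823, edgeR adjusted p = 0.027, and 0.12 with class). Its groups were separate by a small margin, and replicate 4 held the lowest vehicle value. Kcna2 (0.27 ± 0.0944) and the leak channel Kcnk10 (0.43 ± 0.134) were also called, and with class their values were 0.04 and 0.21.

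Of the 9 members lower in raloxifene, Kcnh6 and Kcnt1 are given first, and neither was called with class. Kcnh6 is a voltage-gated channel of the ERG type. Raloxifene libraries held 1.08, 2.01, 1.28, 1.94 and 2.36 CPM and vehicle libraries 3.17, 4.45, 3.42, 3.63 and 2.5 CPM. The groups did not overlap, but the counts were low, between 7 and 39 per library over all groups. The difference on the log2 scale was -0.99 ± 0.24 (edgeR, adjusted p = 0.0115), -0.89 ± 0.285 with class (edgeR, adjusted p = 0.716), and -1.08 ± 0.414 against the class B vehicle library.
Kcnt1 held 39.2, 46.9, 45.2, 39.4 and 38.3 CPM in raloxifene and 58.4, 59.0, 68.8, 46.2 and 53.0 CPM in vehicle. The overlap came from vehicle replicate 4, which lay just under the highest raloxifene value. Its log2 fold change was -0.45 ± 0.0992 (edgeR, adjusted p = 0.0111), -0.28 ± 0.103 with class (edgeR, adjusted p = 0.805), and -0.16 ± 0.137 against the class B vehicle library.
The sodium-activated pair thus moved in opposite directions in raloxifene as designed, Kcnt2 higher and Kcnt1 lower.

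The other 7 lower members were all smaller in size with class. Kcnk12 stood at 6.67, 8.41, 8.24, 7.78 and 8.78 CPM in raloxifene and 16.5, 12.7, 14.3, 10.2 and 12.8 CPM in vehicle, where the library nearest to raloxifene was again replicate 4. Its log2 fold change went from -0.74 ± 0.22 to -0.05 with class. Kcng2, a silent subunit, went from -0.65 to 0.10 and so changed sign. Kcnh2, the main ERG channel, went from -0.48 to -0.12, the G-protein-gated rectifier Kcnj9 from -0.44 to -0.02, the small-conductance channel Kcnn1 from -0.37 to -0.06 and the fast delayed rectifier Kcnc1 from -0.34 to -0.04.
Called or not, 8 of 9 silent subunits and 10 of 13 KCNQ and EAG-type members had a negative value in raloxifene, and 48 of all 73 members. The median was -0.11 over the members and -0.02 over all genes, and with class it was 0.03 over the members.

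**Figure D2:**
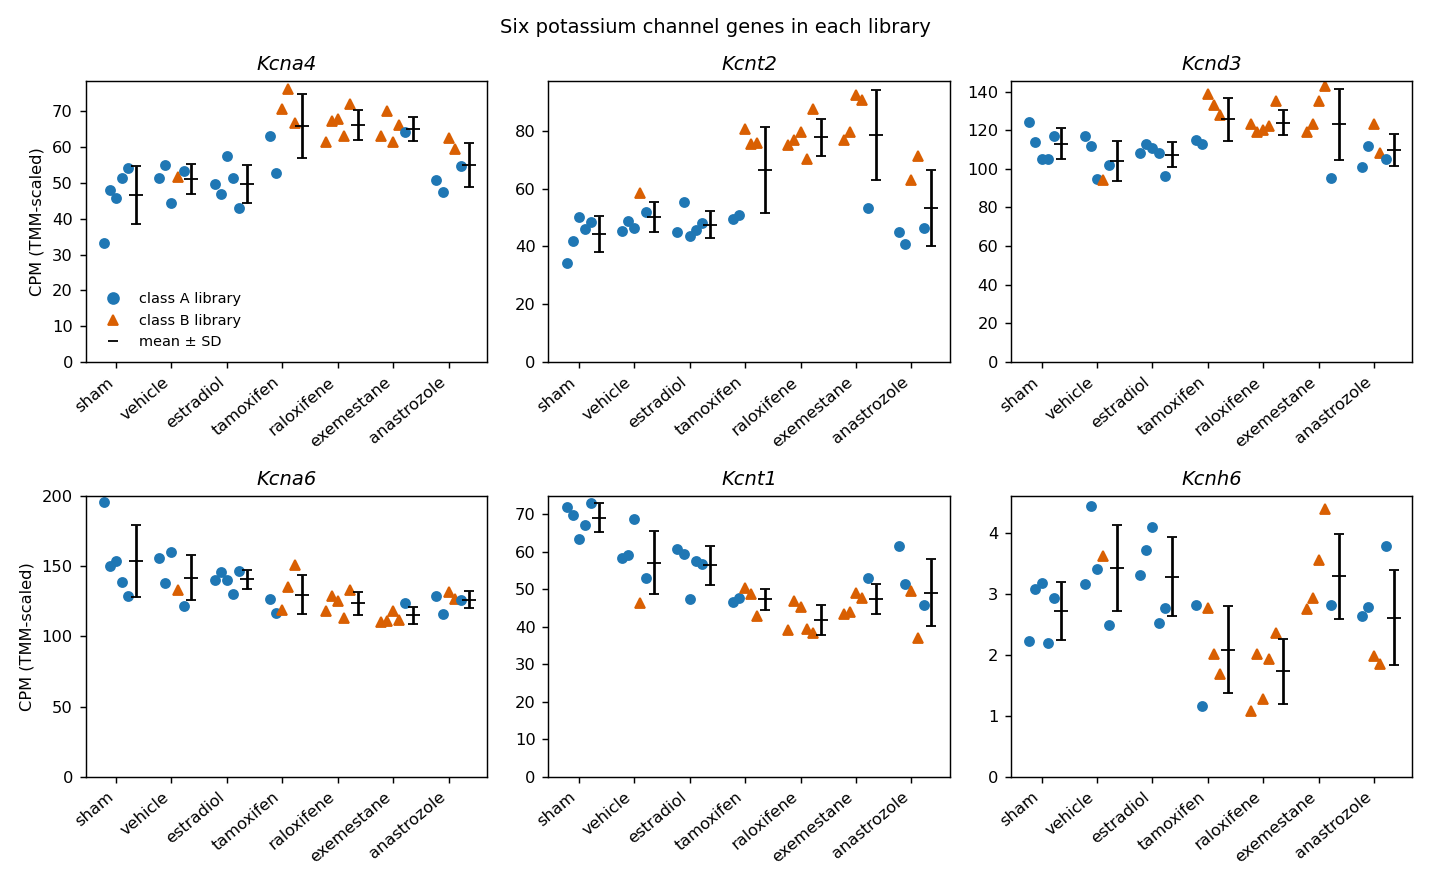
CPM in each of the 35 libraries (vertical axes from 0) for 6 channel genes by group, with circles for class A, triangles for class B and bars for mean ± SD (n = 5). For Kcnt2 the class B libraries lie from 58.5 to 92.4 CPM and the class A libraries from 34.4 to 55.2 CPM in whichever group they are, while the low Kcnh6 values of raloxifene, 1.08 to 2.36 CPM, lie below the 5 vehicle values.

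More members differed between the classes than in any pairwise comparison of groups. With group in the model, 33 of 73 members (45.2%) differed between classes by edgeR, against 51.9% of all genes. Of these, 10 were higher in class B (13.7%, against 25.5%) and 23 lower (31.5%, against 26.3%). Kcng2 had a median of 35 CPM in class A and 18.5 CPM in class B (coefficient -0.90 ± 0.0969), and Kcnk12 had 15.6 and 7.94 CPM (-0.84 ± 0.0874). Kcnt2 had 46.4 and 76.9 CPM (0.56 ± 0.0651), and Kcnip4, a calcium-binding partner of Kcnd channels, 35.1 and 49.4 CPM (0.51 ± 0.0556). For Kcnk12, Kcnt2 and Kcnip4 the ranges of the classes did not overlap. This was not particular to them, as Kcnc1 had 114 to 191 CPM in class A and 84.2 to 108 CPM in class B. The share of all genes without overlap between classes was not computed.
Higher in class B were further the A-type genes Kcna4 (0.17) and Kcnd3 (0.16), the beta subunit Kcnab1 (0.23) and Kcna2 (0.29). Lower were members of most roles, such as Kcnj9 (-0.51), Kcnh3 (-0.45) and Kcnk9 (-0.37). The median content of G and C in the promoter window was 65.2% in the 7 higher members with an entry and 65.0% in the 12 lower ones.

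**Figure D3:**
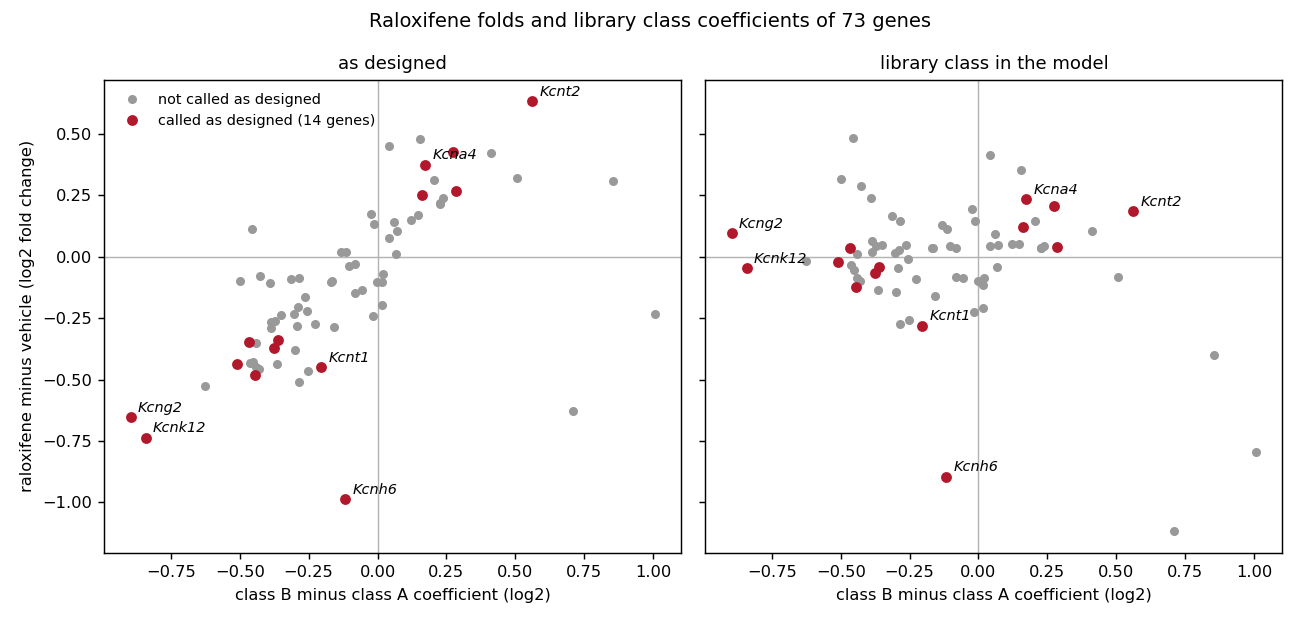
Log2 fold change of raloxifene against vehicle (vertical axis) and class B minus class A coefficient (horizontal axis, log2) of 73 channel genes, as designed (left) and with class in the model (right), with the 14 called genes in red. On the left called genes lie along the class coefficient, apart from Kcnh6 at -0.99, and on the right most red points lie near 0.

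Exemestane called 3 members by edgeR (4.11%), against 6.51% of all genes. Of these 2 were higher (2.74%, against 4.06%) and 1 lower (1.37%, against 2.45%). DESeq2 called 10 members (13.3%), against 13.1% of all genes. With class in the model no member and 0.0% of all genes were called, and 4 members (5.48%) against 6.97% of all genes had an unadjusted p below 0.05.
Kcnt2 held 76.9, 79.7, 92.4, 90.6 and 53.4 CPM in exemestane. The last of these is the only class A library of the group and lies within the vehicle range of 45.4 to 58.5 CPM, while the other 4 lie above it. The log2 fold change was 0.65 ± 0.148 (edgeR, adjusted p = 0.0394) and 0.29 ± 0.0909 with class. Against the lone class B vehicle library the 4 class B exemestane libraries gave 0.53 ± 0.114, with that library assumed to vary like the others. The same fit gave 0.45 for Kcnd3 and 0.34 for Kcnq5, neither of which was called as designed. It gave 0.32 for Kcna4 and -0.25 for Kcna6.
Kcna4 held 63.1, 70.2, 61.3, 66.3 and 64.3 CPM, all above the vehicle range of 44.3 to 55.0 CPM, and here the class A library did not stand apart. Its log2 fold change was 0.35 ± 0.101 (edgeR, adjusted p = 0.0452) and 0.24 ± 0.1 with class. Kcna6, a delayed rectifier that joins other Kcna subunits, was lower, at 110, 111, 118, 112 and 124 CPM against 156, 138, 160, 133 and 122 CPM. Only the lowest vehicle and the highest exemestane value overlapped. Its log2 fold change of -0.30 ± 0.0846 (edgeR, adjusted p = 0.045) was -0.31 ± 0.0924 with class (edgeR, adjusted p = 0.5), and its class coefficient was 0.02.
Each of these 3 calls was held in 2 of 10 fits that left out 1 library, and the count of members called ran from 0 to 25. It was 25 (34.2%, against 28.7% of all genes) without exemestane replicate 5, 12 (16.4%, against 19.5%) without vehicle replicate 4, and 0 against 0.0% without any other single library.

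In tamoxifen, the other receptor modulator, no member and 0.0% of all genes were called by edgeR, and DESeq2 called 0 members and 0.551% of all genes. At an unadjusted p below 0.05 there were 10 members (13.7%) against 16.4% of all genes. Kcna4 had the smallest p, with 63.1, 52.8, 70.6, 76.3 and 66.7 CPM in tamoxifen. All but replicate 2 lay above the vehicle range of 44.3 to 55.0 CPM (0.37 ± 0.101, edgeR adjusted p = 0.127, and 0.29 with class). Without tamoxifen replicate 2, Kcna4 and Kcnd3 were called.
The 5 Kcnt2 values of tamoxifen, 49.4, 50.9, 80.6, 75.3 and 75.7 CPM, split by class, with replicates 1 and 2 of class A within the vehicle range. Kcnd3 stood at 115, 113, 139, 133 and 128 CPM (0.27 ± 0.0825) and Kcnab1, a beta subunit that speeds inactivation, at 156, 154, 189, 174 and 195 CPM against 136 to 157 CPM in vehicle (0.24 ± 0.0844). Kcnh6 stood at 2.82, 1.16, 2.77, 2.01 and 1.68 CPM against 2.5 to 4.45 CPM (-0.71 ± 0.238), and Kcnt1 at 42.9 to 50.3 CPM (-0.27 ± 0.0993). Among class B libraries alone, where the lone vehicle library is assumed to vary like the other groups, Kcnd3 (0.48) and Kcnq5 (0.35) were called (2.74% of members, against 0.626% of all genes) and Kcnt1 was at 0.0038.

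Tamoxifen and raloxifene were then compared with each other. No member and 0.0% of all genes were called by edgeR, DESeq2 called 0 members and 0.0465% of all genes, and 6 members (8.22%) against 8.41% of all genes had an unadjusted p below 0.05. The silent subunit Kcng1 had 56.4 ± 8.44 CPM in tamoxifen and 43.1 ± 2.32 CPM in raloxifene (0.39 ± 0.148, edgeR adjusted p = 0.584, and 0.20 with class). Kcnj2 stood at 5.63, 6.97, 7.11, 5.89 and 6.63 CPM in tamoxifen and 9.51, 8.78, 9.52, 7.78 and 7.71 CPM in raloxifene, without overlap (-0.43 ± 0.152, and -0.38 with class). Kcnip1, a calcium-binding partner of Kcnd channels, differed by -0.55 ± 0.222 with overlapping groups. For Kcnh6 tamoxifen and raloxifene had means of 2.09 ± 0.712 and 1.73 ± 0.535 CPM.

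Anastrozole had the fewest members at an unadjusted p below 0.05 of the 6 comparisons with vehicle. No member and 0.0% of all genes were called by edgeR, DESeq2 called 0 members and 0.00664% of all genes, and 2 members (2.74%) against 2.87% of all genes had an unadjusted p below 0.05. These were Kcnt1, at 61.4, 51.5, 49.5, 36.9 and 45.7 CPM (-0.22 ± 0.0984), and Kcna3. Kcna6 (-0.17 ± 0.0842), Kcnh6 (-0.40 ± 0.229) and the G-protein-gated rectifier Kcnj5 (0.39 ± 0.246) came next. All of these overlapped the vehicle libraries.

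Exemestane and anastrozole, which share their target enzyme, were compared directly. No member and 0.0% of all genes were called by edgeR, while 18 members (24.7%) against 27.1% of all genes had an unadjusted p below 0.05. DESeq2 called 2 members, Kcnt2 and Kcnc4 (2.67%, against 5.6% of all genes). Kcnt2 stood at 45.1, 40.7, 62.9, 71.1 and 46.3 CPM in anastrozole, where the 2 high values are the class B libraries. Its difference was 0.56 ± 0.147 (edgeR, adjusted p = 0.0901) and 0.35 ± 0.0844 with class (edgeR, adjusted p = 0.0827). Kcnc4, a fast A-type pore, had 60.0 CPM as the mean in exemestane and 71.8 CPM in anastrozole (-0.26 ± 0.0872, and -0.15 with class). Kcnk12 differed by -0.59 ± 0.218, and by -0.28 with class.
Leaving out 1 library gave 18 called members (24.7%, against 23.8% of all genes) without exemestane replicate 5, 8 (11%, against 18.6%) without anastrozole replicate 4 and 5 (6.85%, against 10.6%) without anastrozole replicate 3, each a library whose class is the minority in its group.

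The test of any difference among the 7 groups called 31 members (42.5%), against 37.0% of all genes, and with class 0 members against 0.0278%. Kcnt1 had the smallest p, and its mean ran from 41.8 ± 3.93 CPM in raloxifene to 69.1 ± 3.87 CPM in sham, with vehicle (57.1 ± 8.3) and estradiol (56.3 ± 5.17) next to each other below sham. The means of tamoxifen (47.2 ± 2.78), exemestane (47.4 ± 3.98) and anastrozole (49.0 ± 8.92) followed within their spread. Kcnk9 was also highest in sham, and its means ran from 36.9 ± 5.67 CPM there and 32.6 ± 3.29 in estradiol through vehicle (27 ± 3.63) and anastrozole (26.8 ± 4.43) to 23.2 ± 5.15 in tamoxifen, 22.6 ± 2.09 in raloxifene and 21.9 ± 1.77 in exemestane. With class the adjusted p of edgeR was 0.13 for Kcnt1, 0.144 for Kcnk9 and 0.219 for Kcnt2.

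**Figure D4:**
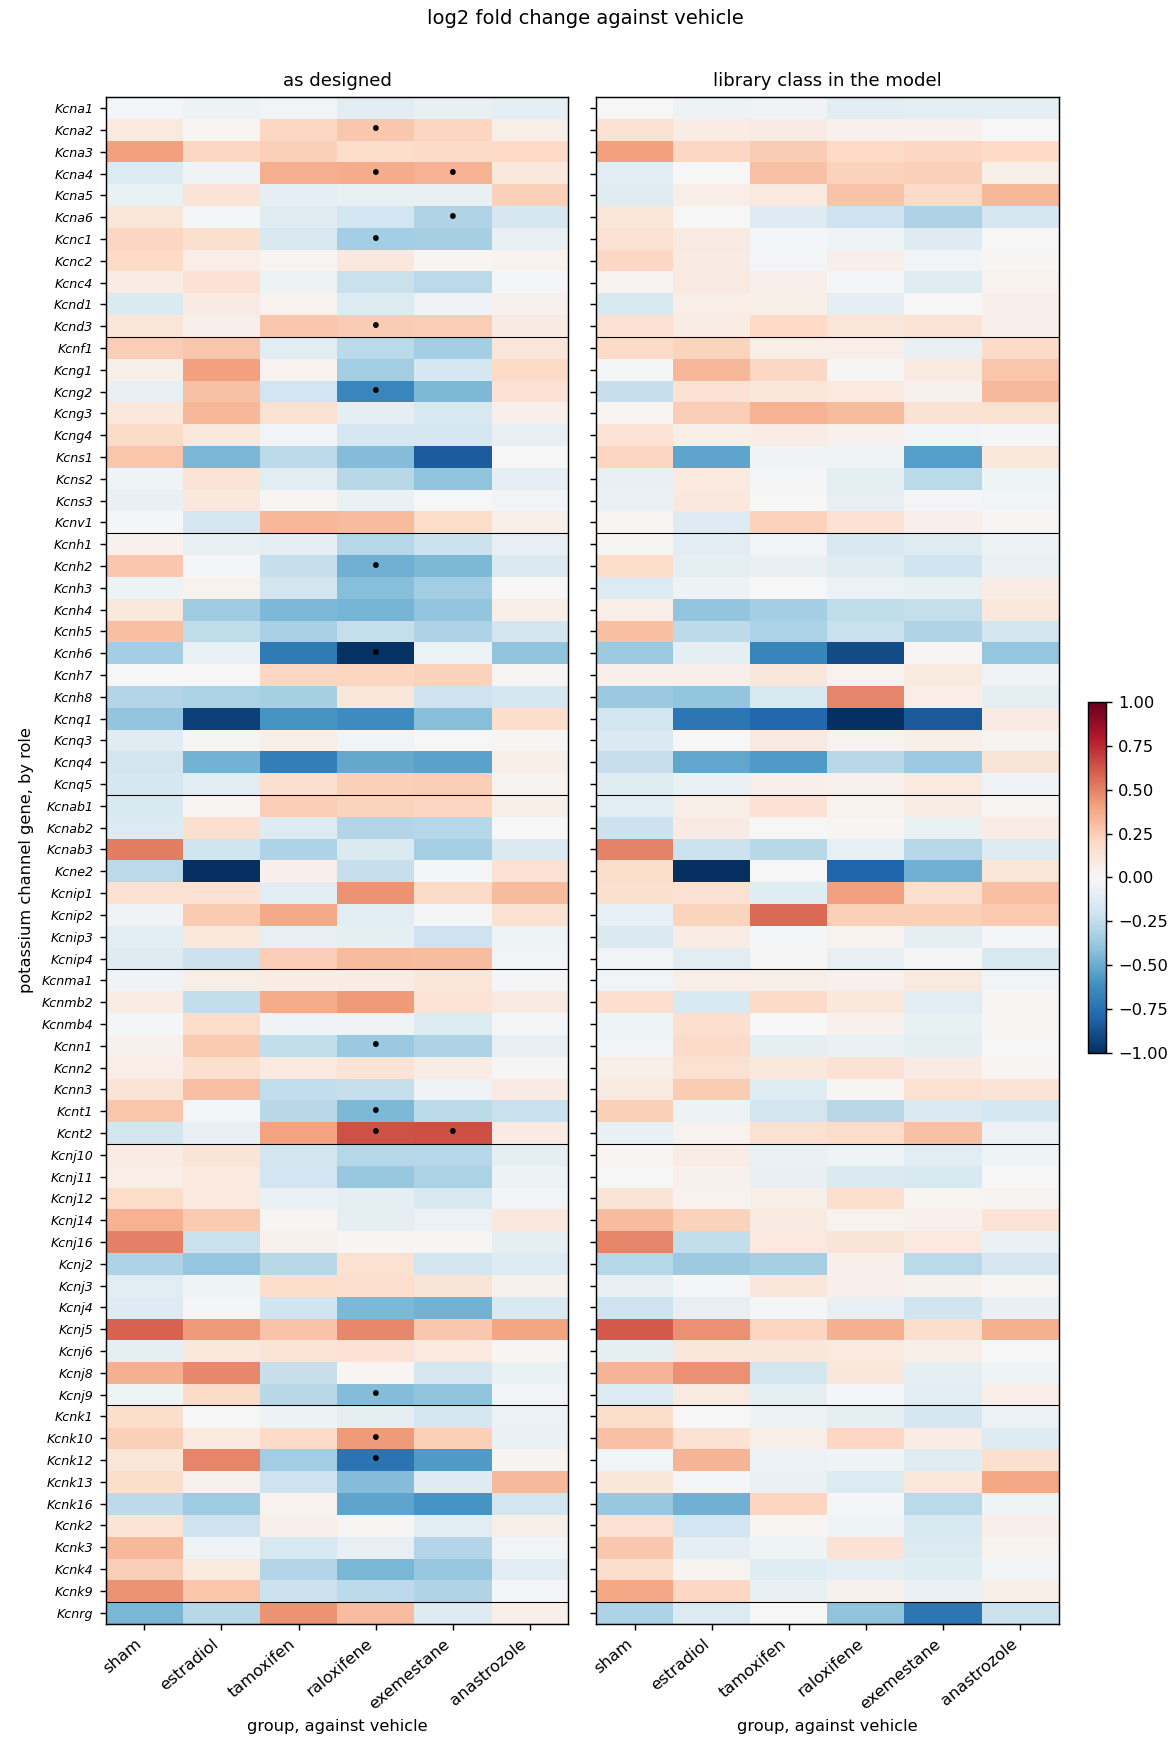
Log2 fold change against vehicle (colour, ends at ±1) of 70 of the 73 tested channel genes (rows, grouped by role) in 6 groups (columns), as designed (left) and with class in the model (right), with a dot for an adjusted p of at most 0.05 by edgeR. Dots stand in raloxifene (13 of the 14 called genes, since 1 is among the 3 tested genes not drawn) and exemestane (3) on the left and nowhere on the right, and the Kcna3 row is above 0 in all 6 columns of both panels.

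Kcne2 and Kcnq1 differed between libraries with high and low Ttr within groups. In choroid plexus epithelium, as known from mouse, Kcnq1 forms the pore and Kcne2 its auxiliary subunit. Ttr, the transthyretin made by this epithelium, was at 832 to 2770 CPM in 15 libraries and at 0.495 to 65.8 CPM in the other 20. Kcne2 ran from 7.17 to 28.6 CPM (median 15.6) in the 15 and from 0.328 to 2.71 CPM (median 1.79) in the 20. Kcnq1 ran from 1.12 to 2.87 CPM (median 2.05) and from 0.0 to 0.347 CPM (median 0.165), with 7 of the 20 at 0. The ranges of these 2 of 75 members (2.67%) did not overlap between the sets of libraries, which were split on Ttr, and neither did those of 95 of 15058 genes other than Ttr (0.631%). High Ttr was found in 3 libraries each of sham and anastrozole, 2 each of vehicle and the tamoxifen, raloxifene and exemestane groups, and 1 of estradiol. The low mean of Kcne2 in estradiol, 3.62 ± 6.13 CPM, came with 14.6 CPM in its 1 library of high Ttr and 0.328 to 1.33 CPM in the other 4. Neither gene was called in any comparison.

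**Figure D5:**
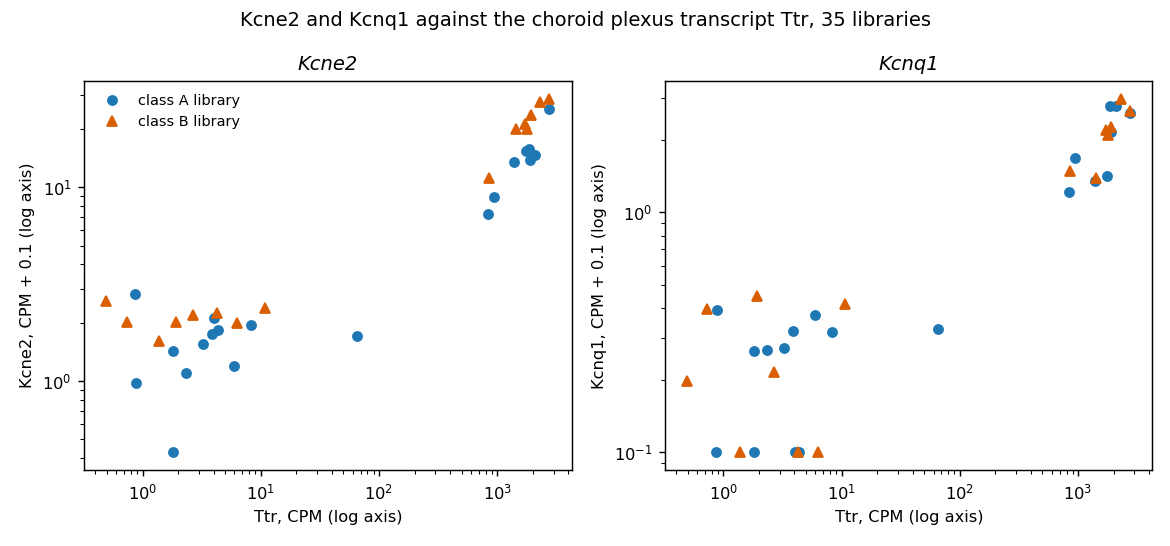
Kcne2 (left) and Kcnq1 (right) in CPM + 0.1 against Ttr in CPM, both on log axes, for 35 libraries, with circles for class A and triangles for class B. The 15 libraries above 832 CPM of Ttr hold 7.17 to 28.6 CPM of Kcne2 and 1.12 to 2.87 CPM of Kcnq1, above all other libraries, and both classes occur on each side.

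Partners of the channels were examined as a list of 27 genes, of which 24 were tested. The list was chosen with earlier results of these data known, so its shares called are not an independent test of the partners. It held accessory proteins of Kcna, Kcnb, Kcnd and calcium-activated channels, the sulfonylurea receptors, the HCN pacemaker channels, and the sodium pump and chloride transporters. In raloxifene 4 were called higher (Atp1b1, Dpp10, Lgi1, Vapa) and 6 lower (among them Abcc8, Cntn2, Hcn2, Lrrc55 and Slc12a5), or 41.7% of the 24 against 24.8% of all genes, and in exemestane 1 higher (Lgi1) and 3 lower (Cntn2, Hcn2, Lrrc55), or 16.7% against 6.51%. No partner was called in any of the other pairwise comparisons, nor in any comparison with class. Between classes 15 of the 24 differed (62.5%, against 51.9%).
Hcn2, which carries the hyperpolarisation-activated current, had 114 ± 16.8 CPM in vehicle, 79.1 ± 4.04 CPM in raloxifene and 81.2 ± 14.5 CPM in exemestane (-0.52 ± 0.143 and -0.49 ± 0.144, with class -0.09 and -0.17). Lgi1, a secreted protein that acts on Kcna channels, had 193 ± 18.6, 248 ± 17.3 and 243 ± 26.4 CPM (0.36 ± 0.0962 and 0.33 ± 0.0963, with class 0.10 and 0.13). Lrrc55, an auxiliary subunit of the large-conductance channel, and Cntn2, an adhesion protein that gathers Kcna channels beside the node of Ranvier, changed less with class. Lrrc55 had 6.9 ± 0.657, 4.6 ± 0.467 and 4.93 ± 1.04 CPM (-0.59 ± 0.14 and -0.49 ± 0.14, with class -0.51 and -0.43), and Cntn2 172 ± 4.8, 138 ± 8.56 and 135 ± 17 CPM (-0.32 ± 0.0821 and -0.35 ± 0.0823, with class -0.22 and -0.28).

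Some members are neighbours in the RefSeq gene order. Kcna3 lies next to Kcna2 on chromosome 2, and Kcna5, Kcna1 and Kcna6 follow each other on chromosome 4. Kcna2 had a log2 fold change of 0.10 in sham, where Kcna3 had 0.41, and 0.27 in raloxifene, where Kcna3 had 0.18. Kcnj9 lies next to Kcnj10 on chromosome 13, and both were lower in class B (-0.51 and -0.29).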

How the data were processed

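RNA was sequenced from 35 hippocampal libraries (stranded poly(A) libraries, 100 bp paired reads, per the labels' protocols). The un-normalised table holds estimated counts per gene, deposited by the authors, and Salmon and DESeq2 are named in the submitters' processing notes. Its settings, the build and the annotation are not given in the sources used here. The second deposited table holds a signal: counts that the authors divided by factors that differ per gene and library. Estimated counts were rounded to whole numbers and tested with edgeR 4.0.16 (R 4.3.3): TMM scaling, filterByExpr by group, robust quasi-likelihood fit of all 7 groups, and Benjamini-Hochberg adjustment over 14411 genes with a threshold of 0.05. CPM are counts per 1000000 of TMM-scaled totals, and SE is the log2 fold change divided by the square root of F. The same estimated counts were also tested with DESeq2 1.42.0.

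Library class is the sign of the first principal component of the log2 ratio of the 2 deposited tables over 12261 genes, and that component took up 78.7% of the variance, the next 1.475%. The share of Rn7sl1 was 4.472% to 6.49% in class A libraries, and class B libraries had 2.902% to 3.842%. Whether class stems from library preparation, dissection or another source was not tested. The common biological coefficient of variation was 0.152. Nothing in the labels says how the libraries of a group were kept apart, so p-values measure only the spread between these samples.

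Members and gene lists were chosen with earlier results of these data known. Named were Kcna3, the 5 members of smallest p in each comparison with vehicle and the 3 in the others, among those with at least 1 CPM, all called members, and the best-counted member of each subfamily. Values of a few genes that the rule names are not reported here, though they stay in the counts of members and partners called. Kcnab3 and Kcnj16 in sham, Kcnq1, the class comparison and the neighbouring genes were chosen after values were seen. Alternatives were RLE scaling, no filter, a fit of only the groups compared, class, Ttr as a covariate, the authors' factors, single classes, DESeq2 and leaving out each library. In simulated counts for sham against vehicle over 14411 genes, 186 of 200 changed genes of log2 size 1 were called (93%), with 3 false calls. That size is larger than any member's in sham against vehicle (-0.454 to 0.587), and no class difference was simulated. The simulation therefore cannot tell how often differences of the sizes seen here, or under the class split, would be called.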

Additional observations from a re-analysis of the deposited data

Results flagged for a closer look

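Single libraries that stood far from the other 4 of their group were looked for with Dixon's test in 39 members and 7 groups, 273 tests in all. It gave 26, and chance gives about 1 in 20 tests.

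Sham replicate 1 held 6 of them. Kcnab3 stood at 32.4 CPM with the nearest other sham library at 13 CPM, Kcnc1 at 191 CPM (nearest 133) and Kcnh2 at 61.4 CPM (nearest 35.8). Lower than the others there were Kcnh3 at 42.4 CPM (nearest 97.7), Kcnma1 at 136 CPM (nearest 190) and Kcnmb4 at 21.3 CPM (nearest 32.8). In that library thalamus and habenula markers summed to 321 CPM, against 108 to 154 CPM in the other 34. Their part in these values was not tested.

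Exemestane replicate 5, the only class A library of its group, held 5, all high. They were Kcnc1 at 129 CPM (nearest 93.5), Kcng2 at 38.0 CPM (nearest 18.5), Kcnh2 at 32.5 CPM (nearest 22.5), Kcnj9 at 69.7 CPM (nearest 46.2) and Kcnk12 at 16.5 CPM (nearest 7.94). Vehicle replicate 4, the only class B library of its group, was low for Kcng2 at 19.1 CPM (nearest 29.5) and Kcnip2 at 26.4 CPM (nearest 67.6).

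Raloxifene replicate 3 was high for Kcnf1 at 43.2 CPM (nearest 33.9), Kcnj9 at 59.3 CPM (nearest 47.8) and Kcnk1 at 51.0 CPM (nearest 40.5). Estradiol replicate 2 was low for Kcnab2 at 264 CPM (nearest 309) and high for Kcnv1 at 29.5 CPM (nearest 25.6) and for Kcne2 at 14.6 CPM (nearest 1.33), and it is the estradiol library with high Ttr. Kcnj14 was high in replicate 2 of vehicle at 10.8 CPM (nearest 8.34), of tamoxifen at 10.3 CPM (nearest 8.42) and of raloxifene at 10.5 CPM (nearest 7.55). The other 4 were Kcnc2 at 68.3 CPM in anastrozole replicate 2 (nearest 74.8), Kcnd3 at 135 CPM in raloxifene replicate 5 (nearest 123), Kcnma1 at 220 CPM in exemestane replicate 4 (nearest 205) and Kcnrg at 1.02 CPM in estradiol replicate 5 (nearest 0.723).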

How the results depend on the processing

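The count of members called by edgeR moved with the processing in raloxifene and exemestane, and the cause was not tested. For raloxifene (14 as designed) it was 3 with the authors' per-gene factors (4.11%, against 6.41% of all genes), 0 with library class as a term, 0 among class B libraries alone (against 0.184%) and 32 when only the compared groups were fitted (45.7%, against 35.1%). For exemestane (3) it was 10 with DESeq2, 7 with Ttr as a covariate (9.59%, against 10.4%), 1 with the authors' factors (1.37%, against 0.93%), and 0 with class, among class A libraries alone and with only the compared groups. DESeq2 gave 1 for sham and 2 for exemestane against anastrozole, and class B libraries alone gave 2 for tamoxifen (all 0 as designed). Any difference (31) gave 13 with the authors' factors (17.8%, against 17.7%) and 0 with class, and the class difference (33) gave 14 with the authors' factors (19.2%, against 27.2%), chosen after seeing the data.

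Leaving out 1 library gave 5 to 23 for raloxifene, against 12% to 31% of all genes, with 5 without vehicle replicate 1, 6 without vehicle replicate 3 or raloxifene replicate 5, 7 without vehicle replicate 2 or raloxifene replicate 1 or 4, 9 without vehicle replicate 5 and 23 (31.5%, against 31%) without vehicle replicate 4. It gave 0 to 25 for exemestane, 0 to 18 for exemestane against anastrozole and 0 to 2 for tamoxifen, with 2 (2.74%, against 4.01%) without tamoxifen replicate 2. Estradiol against sham with class gave 0 to 2, with 2 (Kcnab2 and Kcng2, 2.74% against 0.338% of all genes) without sham replicate 4. Sham, estradiol, anastrozole against vehicle, and tamoxifen against raloxifene, stayed at 0.

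The sign turned in a few log2 fold changes. For raloxifene with class, Kcng2 was 0.095 with no library left out. Over the fits that left out a library, with and without class, Kcng2 ran from -0.7722 to 0.1715, Kcnh2 from -0.5127 to 0.003564, Kcnj9 from -0.5077 to 0.08477, Kcnk12 from -0.8006 to 0.1251, Kcna2 from -0.03127 to 0.3305 and Kcnd3 from -0.01003 to 0.2939. The end with the other sign came in each case with class in the model and a library left out, a combination chosen after seeing the data, and for Kcnh2, Kcnj9, Kcnk12, Kcna2 and Kcnd3 without vehicle replicate 4, which leaves vehicle with class A libraries only. Among class A libraries Kcnd3 in exemestane was -0.1559 and Kcnk12 in exemestane against anastrozole 0.01165, and among class B libraries Kcnt1 in tamoxifen was 0.003757. Of the values of the 47 named results with no library left out, 332 kept direction and side of the threshold, 50 fell short of it, 8 came past it and 4 turned sign. No paired analysis was possible because the replicate numbers only order the libraries within a group. Depth limits Kcnh6, with 7 to 39 counts a library, and Kcnrg, with 2 to 18.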
